A study of Homo sapiens with 24 samples.

Results

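Cells lacking MRM3 were compared with cells lacking MRM2, in RNA that had been reverse transcribed with 500 µM dNTP. The 6 libraries compared, of 24 in the series, were 3 of the MRM3 knock-out (MRM3 KO) line and 3 of the MRM2 knock-out (MRM2 KO) line, chosen by their sample titles and column names. Both lines derive from HEK293T cells of the Flp-In T-REx kind, which come from human embryonic kidney and hold an integration site for inducible transgenes, and the knock-outs were grown, per the labels, in medium with added serum and uridine. Mitochondria were isolated, their RNA was fragmented in hot alkaline buffer, and the ends of the fragments were sequenced; each library is 1 plate of cells, so that a p-value reflects how far plates of the same line differ. The MRM2 KO line was made with zinc finger nucleases and screened as clonal lines, whereas the MRM3 KO line came from another source, so that the missing gene and the history of the line cannot be told apart. The genotype entry in the labels names another genotype than the title for all 6 libraries, and the titles were used. Only reads on the mitochondrial genome were aligned, so that the transcripts of the nuclear genes MRM2 and MRM3 and markers of the cell line could not be checked. The titles can be set against the 3 methylated residues, whose values are given for each line. The parental line and the MRM1 knock-out line, with 3 libraries each at 500 µM dNTP, are given as ranges beside some values and enter no test.

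Human mitochondria carry their own ribosome, whose large subunit is built on the 16S mitochondrial rRNA (MT-RNR2) and whose small subunit is built on the 12S mitochondrial rRNA (MT-RNR1). Ribose methylation at the 2′ oxygen is placed on the 16S rRNA by MRM1 at G2815 in the P-loop, by MRM2 at U3039 in the A-loop and by MRM3 at the neighbouring G3040. These loops hold the ends of the tRNAs in the peptidyl transferase centre, the site where peptide bonds form. The methyl group blocks the attack of the 2′ oxygen on the adjacent phosphodiester bond, and a methylated residue is therefore protected from alkaline cleavage. At limiting dNTP the reverse transcriptase also pauses at such residues.

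The stretches of 16S rRNA on which the results turn are given as the RNA form of mitochondrial chromosome M of GRCh38 (plus strand), with the residues measured in capitals. The residues named keep the numbering of the mitochondrial genome. The first stretch (chrM:3029-3050) holds the targets of MRM2 and MRM3, the next (chrM:2805-2825) the target of MRM1, and the third (chrM:2607-2627) a 1-methyladenosine that stops reverse transcriptase. The remaining stretches (chrM:2710-2738, chrM:2933-2953, chrM:2986-3006 and chrM:3049-3069) hold residues outside the methylated sites at which the lines differed. All are in the exon of MT-RNR2, which spans chrM:1671-3229.
U3039 and G3040: aagguucguuUGuucaacgauu
G2815: auuucgguugGggcgaccucg
A2617: uguuccuuaaAuagggaccug
A2717, G2721 and U2731: cagcaagAcgaGaagacccuaUggagcuu
G2943: ggauaacagcGcaauccuauu
G2996: cucgauguugGaucaggacau
A3059: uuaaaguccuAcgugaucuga

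Depth was 230032, 256414 and 485846 reads in the 3 MRM3 KO libraries, against 194073, 191831 and 162673 reads in the MRM2 KO libraries. Replicate 3 of the MRM3 KO line was the deepest and had the shortest fragments, with a mean of 121 nucleotides, whereas the other 5 libraries had means from 135 to 141 nucleotides. Replicate 1 of the MRM3 KO line stood apart in its mt-tRNAs, which took 11.6% of its reads, against 6.31 and 6.39% in the other 2 replicates of its line and 11.6 to 18.8% in the MRM2 KO libraries. No pair of replicates agreed within sampling noise, with chi-square per degree of freedom from 1.97 to 4.004, and none was taken for a repeat of another.

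The first question was how cleavage at the 3 methylated residues differed between the lines. At G3040, the target of MRM3, fragments ended freely in MRM3 KO cells and hardly at all in MRM2 KO cells. The number of fragment 3′ ends at G3040 was 52, 52 and 145 in the MRM3 KO libraries, against 3, 3 and 2 in the MRM2 KO libraries. Set against the mean of the 12 flanking positions, 6 on each side, these were 65.8, 59.3 and 81.8% in MRM3 KO, against 2.43, 2.95 and 2.64% in MRM2 KO. Every MRM3 KO library was far above every MRM2 KO library. Means were 68.9 ± 11.6% in MRM3 KO and 2.68 ± 0.260% in MRM2 KO (SD, n = 3 each). The log2 difference was 4.67 ± 0.32 (SE), a 25.4-fold higher level without MRM3 (edgeR quasi-likelihood test, adjusted p = 1.89e-09). Among 2186 positions with enough reads, 9 passed an adjusted p of 0.05 in this test, 0.412% of those tested, and G3040 was the 1 position of these that was higher in MRM3 KO, 0.0457%. The libraries of the lines did not overlap at 14.6% of all positions tested. In the parental line the level at G3040 was 4.18 to 8.91%, and in the MRM1 KO line 3.97 to 6.85%.

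The deposited cleavage protection score is near 1 for a position that is never cleaved. It sets a position against the mean of each flank less its SD, with negative values set to 0. A score of 0 therefore covers positions cleaved somewhat less than, as often as, or more than their neighbours. The score gave the same order at G3040. It was 0.0844, 0.155 and 0.00548 in MRM3 KO, against 0.929, 0.907 and 0.902 in MRM2 KO. The difference was -0.831 (95% interval -1.05 to -0.609, limma, adjusted p = 2.23e-09). Of 418 positions with a score above 0 in at least 3 libraries, 2 passed, 0.478%, 1 in each direction (0.239% each), and 11.7% of the positions had no overlap between the lines. The other was A1439 of the 12S rRNA, at which the score was higher in MRM3 KO. There, 3′ ends were 0, 0 and 0 in MRM3 KO, against 3, 0 and 3 in MRM2 KO, and the score was 0.982, 0.977 and 0.991 in MRM3 KO, against 0.820, 0.962 and 0.689 in MRM2 KO. The difference at A1439 was 0.16 (limma, adjusted p = 0.00701), and it lost the call in 8 of 12 alternatives (limma, adjusted p up to 0.833). It rests on 6 reads, and the libraries whose removal ended the call were MRM3 KO replicates 1 and 2 and MRM2 KO replicate 3.

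At U3039, the target of MRM2, neither line was protected. The level of 3′ ends was 111, 95.03 and 93.2% of the flanking mean in MRM3 KO, against 151, 152 and 167% in MRM2 KO, and the deposited score was 0 in all 6 libraries. The groups did not overlap, with means of 99.9 ± 10.1% in MRM3 KO and 156 ± 9.30% in MRM2 KO (SD, n = 3 each). The log2 difference of -0.66 (95% interval -0.97 to -0.34) did not pass (edgeR, adjusted p = 0.0521). G3040 itself is 1 of the 12 neighbours of U3039, and with called positions left out of the flanking mean the difference was -0.57 (edgeR, adjusted p = 0.152). Over 15 alternatives U3039 passed in 7 and did not pass in 8. With 1 library left out its adjusted p ran from 0.0283 to 0.381 (edgeR). Before negative values were set to 0, the score at U3039 was -0.152, -0.110 and -0.0564 in MRM3 KO, against -0.419, -0.453 and -0.496 in MRM2 KO. By contrast, U3039 was at 31.0 to 42.5% of the flanking mean in the parental line and at 36.6 to 41.5% in the MRM1 KO line, with scores of 0.256 to 0.372 and 0.238 to 0.283.

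G2815, the target of MRM1, was protected in both lines. Its 3′ ends were at 23.9, 16.3 and 19.6% of the flanking mean in MRM3 KO, against 29.8, 22.04 and 10% in MRM2 KO, on 3 to 13 ends a library. The scores overlapped, at 0.448, 0.527 and 0.587 in MRM3 KO, against 0.390, 0.485 and 0.595 in MRM2 KO. The score differed by 0.0312 (95% interval -0.189 to 0.251, limma, adjusted p = 0.961), and the depth leaves differences inside that interval undetectable. In the MRM1 KO line the same residue was at 102 to 120% of the flanking mean. With 3 libraries against 3, an exact two-sided permutation test cannot go below p = 0.1. It gave 0.1 for the level of 3′ ends at G3040, 0.1 at U3039 and 1 at G2815.

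**Figure D1:**
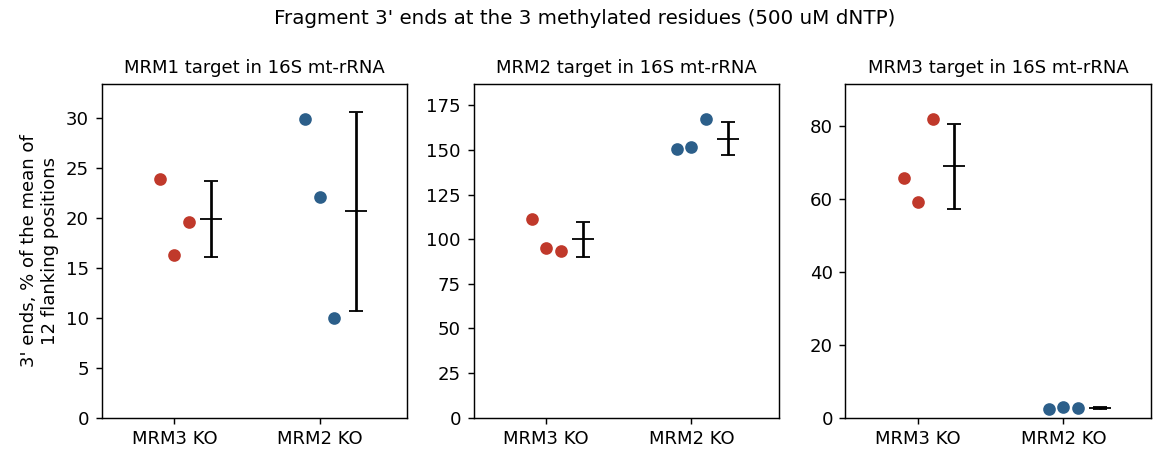
Fragment 3′ ends at the targets of MRM1, MRM2 and MRM3 in the 16S rRNA (vertical axes, percent of the mean of the 12 flanking positions, each panel with its own scale from 0) in the MRM3 KO and MRM2 KO libraries at 500 µM dNTP. Points are libraries and bars are the mean ± SD (n = 3); the lines overlap at the MRM1 target, and at the MRM3 target MRM3 KO lies at 59.3 to 81.8%, against 2.43 to 2.95% in MRM2 KO.

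The next question was whether cleavage differed elsewhere on the rRNAs. The 8 other called positions, 0.366% of the 2186, all had fewer 3′ ends in MRM3 KO, and 7 of them lay in the 16S rRNA. The positions with the clearest separation were G2721, A2717 and A3059. G2721 was at 112, 100.4 and 116% of its flanking mean in MRM3 KO, against 265, 271 and 324% in MRM2 KO. Neighbouring A2717 was at 94.2, 104 and 94.3% in MRM3 KO, against 180, 259 and 249% in MRM2 KO. A3059, 19 nucleotides 3′ of G3040, was at 93.9, 59.1 and 94.2% in MRM3 KO, against 179, 215 and 227% in MRM2 KO. At each of the 3 every MRM3 KO library was below every MRM2 KO library, and the MRM2 KO libraries were well above the flanking mean. The log2 differences were -1.38 ± 0.15 at G2721, -1.24 ± 0.16 at A2717 and -1.31 ± 0.17 at A3059 (SE, edgeR, adjusted p = 3.81e-06, 5.18e-05 and 5.18e-05). The parental line was at 96.3 to 117% at G2721, 85.2 to 94.99% at A2717 and 77.2 to 90.0% at A3059, next to the MRM3 KO values; that likeness was not tested.

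The other 5 positions were also lower in MRM3 KO. U2731, in the same stretch as G2721, was at 227, 139 and 160% in MRM3 KO, against 264, 441 and 539% in MRM2 KO (log2 difference -1.23, edgeR, adjusted p = 0.0024). G2943 was at 35.1, 83.1 and 89.1% in MRM3 KO, against 115, 211 and 232% in MRM2 KO (log2 difference -1.35, edgeR, adjusted p = 0.0138). At both residues the lowest MRM2 KO library was replicate 1, the one nearest to MRM3 KO. G2403, A2031 and C1495 of the 12S rRNA had log2 differences of -1.19, -0.81 and -0.86 (edgeR, adjusted p = 0.0138, 0.0138 and 0.0199). Without 1 of the 6 libraries, the highest adjusted p was 0.000157 at G2721 and 0.00382 at A2717 and A3059, whereas U2731 lost the call without MRM2 KO replicate 2 (edgeR, adjusted p = 0.0843). G2943 lost it without MRM2 KO replicate 2 or 3, and G2403, A2031 and C1495 without MRM3 KO replicate 3 or MRM2 KO replicate 2 or 3 (edgeR, adjusted p up to 0.274, 0.268, 0.219 and 0.286). In the libraries of the same RNA at 2 µM dNTP, G3040 was the 1 position called by 3′ ends. G2721 and A2717 lost the call there (edgeR, adjusted p up to 0.958), and A3059 was not called.

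**Figure D2:**
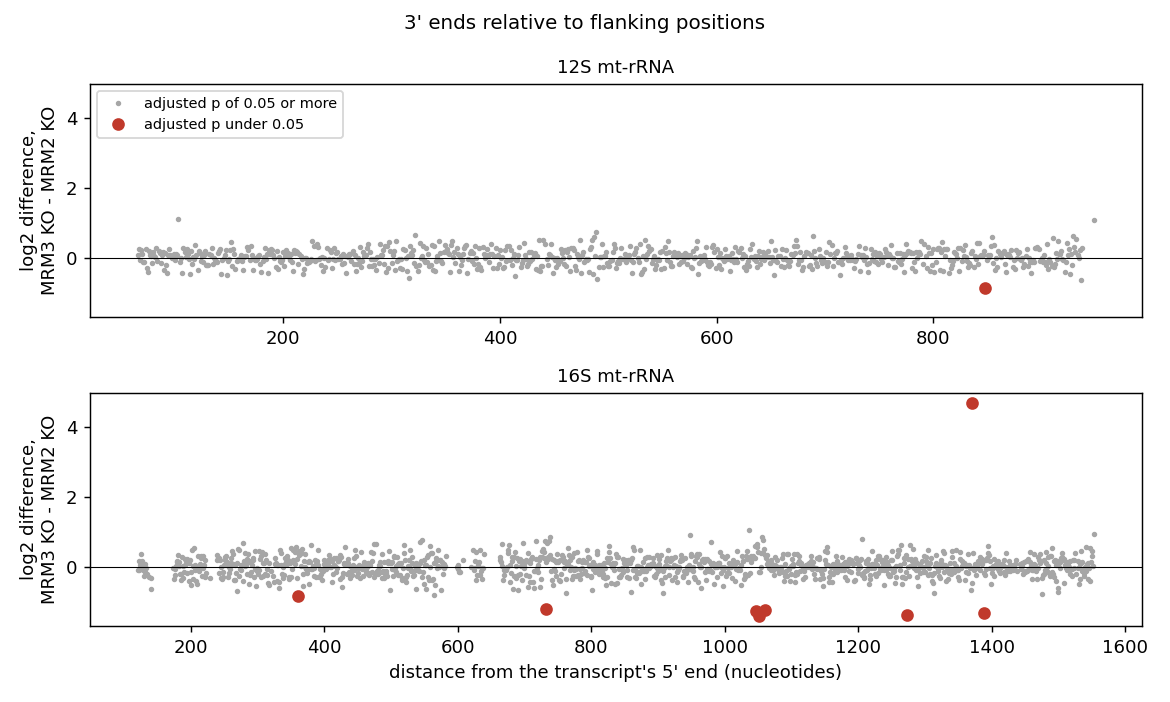
Log2 difference (MRM3 KO minus MRM2 KO, vertical axis) in 3′ ends relative to flanking positions, against the distance from the 5′ end of the 12S (top) and 16S rRNA (bottom) in nucleotides, 1 point per position tested. Red points passed an adjusted p of 0.05: 1 at 4.67, the target of MRM3, and 8 between -1.38 and -0.81, of which 7 lie in the 16S rRNA.

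The other end of the fragments gave a second reading of the same bonds. The stop ratio counts reads whose 5′ end lies just 3′ of a residue, as a share of the coverage there, and so it holds both cleavage after the residue and stops of the reverse transcriptase at it. Of 9315 positions tested, 59 passed (edgeR, adjusted p of 0.05), 0.633%, with 50 higher and 9 lower in MRM3 KO, 0.537 and 0.0966% of the positions. Some of the 50 had enough stops for the test only through MRM3 KO, as given below. The lines did not overlap at 14.7% of all positions, and 0.526% were both called and without overlap. The median log2 difference over all positions was 0.26, so that a position at 0 lies below the middle of the distribution. Of the 9 positions called by 3′ ends 6 were also called by the stop ratio, 66.7% of the first list and 10.2% of the second, and all 6 went the same way in both. The 2 counts come from the same libraries.

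G3040 was among the 6. Its stop ratio was 0.605, 0.586 and 0.582% in MRM3 KO, against 0.232, 0.338 and 0.306% in MRM2 KO, with coverage from 12071 to 21660 reads. The libraries did not overlap, and the ratio was 2.02-fold higher in MRM3 KO (log2 difference 1.02 ± 0.23 SE, edgeR, adjusted p = 0.0171). The call was lost without MRM2 KO replicate 1, 2 or 3 (edgeR, adjusted p = 0.165, 0.102 and 0.264). The other 5, lower in MRM3 KO by both counts, were G2721, A2717, U2731, G2943 and A3059. The stop ratio at G2721 was 1.15, 0.985 and 0.834% in MRM3 KO, against 2.14, 2.19 and 3.15% in MRM2 KO. At A2717 it was 0.690, 0.578 and 0.434% in MRM3 KO, against 1.32, 1.16 and 1.78% in MRM2 KO. At A3059 it was 0.1996, 0.228 and 0.215% in MRM3 KO, against 0.446, 0.598 and 0.780% in MRM2 KO. None of these groups overlapped. The log2 differences were -1.34, -1.34 and -1.49 (edgeR, adjusted p = 1.3e-05, 0.000208 and 0.000172), and in the parental line the ratios were 0.759 to 0.877, 0.502 to 0.716 and 0.198 to 0.270%. U2731 and G2943 had log2 differences of -0.98 and -1.04 (edgeR, adjusted p = 0.0173 and 0.0127). At U3039 the stop ratio was 1.15, 1.37 and 1.00% in MRM3 KO, against 1.47, 1.49 and 1.49% in MRM2 KO, a log2 difference of -0.35 that did not pass (edgeR, adjusted p = 0.474).

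The position with the smallest p of all 9315 was A2617, the 1-methyladenosine of the 16S rRNA that TRMT61B makes. This base cannot pair normally, and reverse transcriptase stops at it. The stop ratio at A2617 was 27.3, 27.5 and 21.7% in MRM3 KO, against 42.4, 48.6 and 46.6% in MRM2 KO, on 1766 to 4309 stops a library. Every MRM3 KO library was below every MRM2 KO library, with means of 25.5 ± 3.33% and 45.8 ± 3.16% (SD, n = 3 each). The log2 difference was -0.85 ± 0.09 (SE), or 0.556-fold (edgeR, adjusted p = 1.5e-08). The parental line was at 36.5 to 46.1% and the MRM1 KO line at 38.9 to 51.0%, ranges that overlap the MRM2 KO values and lie above all 3 MRM3 KO values. Fragment 3′ ends at the same residue did not show it, at 79.5, 98.4 and 90.2% of the flanking mean in MRM3 KO, against 85.0, 93.3 and 104% in MRM2 KO (log2 difference -0.06, edgeR, adjusted p = 0.951). The call at A2617 held without any 1 of the 6 libraries, with adjusted p up to 0.000504. limma on log2 stop ratios, which called 0 of the 9315 positions (782 at an unadjusted p under 0.05), gave A2617 the same difference of -0.85 with an adjusted p of 0.399. In all, A2617 lost the call in 3 of 16 alternatives, with differences from -0.91 to -0.50 over the 16 (edgeR or limma, adjusted p up to 0.455). At 2 µM dNTP the lines overlapped at this residue.

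G2996 was the other 16S position with a higher stop ratio, at 1.13, 1.21 and 0.854% in MRM3 KO, against 0.384, 0.461 and 0.508% in MRM2 KO (log2 difference 1.24 ± 0.20 SE, edgeR, adjusted p = 0.000186). The groups did not overlap, and the parental line was at 0.486 to 0.530%. It was named after its values were seen, as were A1471 of the 12S rRNA and C2405 and A2940 of the 16S rRNA, the remaining positions lower in MRM3 KO, with log2 differences of -0.99, -0.69 and -0.72 (edgeR, adjusted p = 0.0223, 0.0419 and 0.0363).

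**Figure D3:**
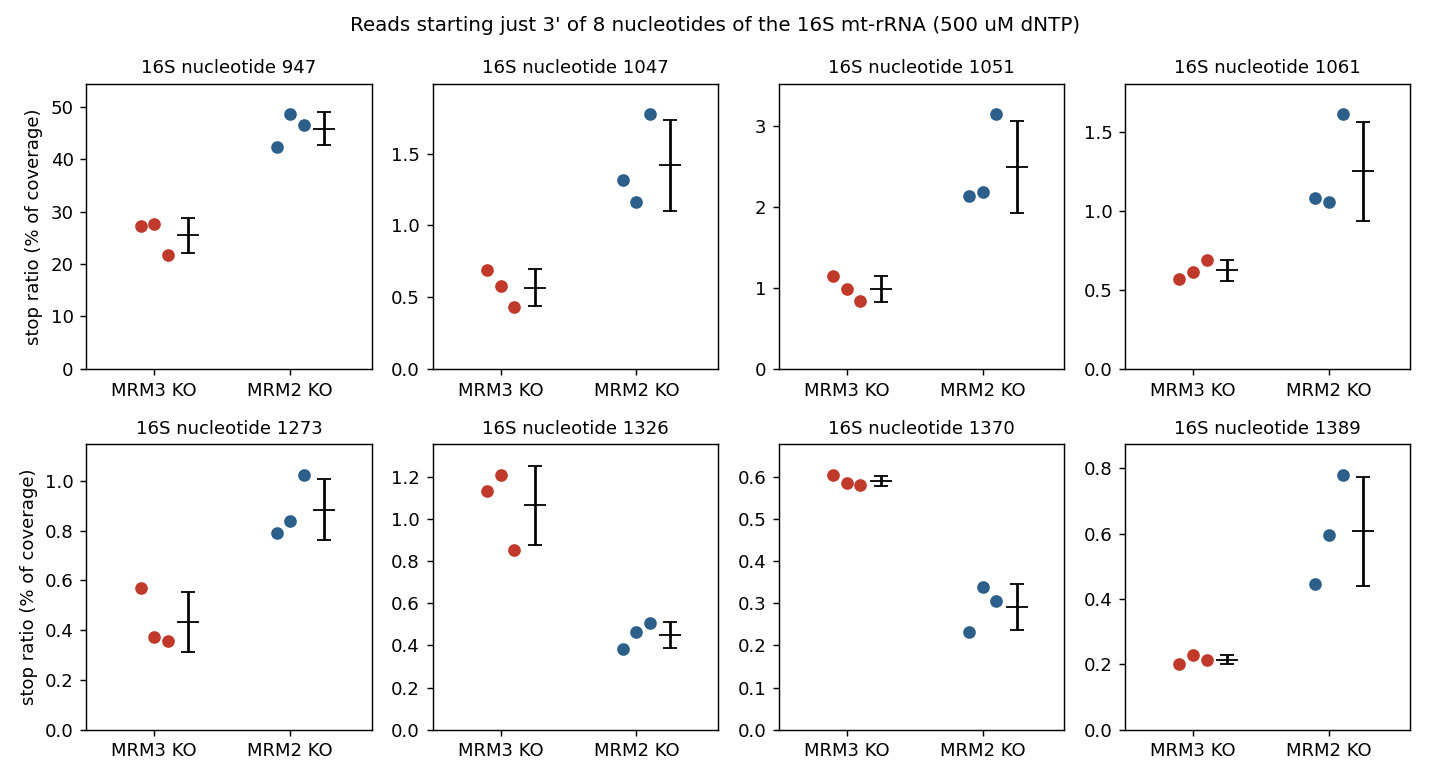
Stop ratio (vertical axes, percent of coverage, each panel with its own scale from 0) at 8 nucleotides of the 16S rRNA counted from its 5′ end, in the MRM3 KO and MRM2 KO libraries at 500 µM dNTP. Points are libraries and bars are the mean ± SD (n = 3); the 1-methyladenosine, nucleotide 947, lies at 21.7 to 27.5% in MRM3 KO, against 42.4 to 48.6% in MRM2 KO, and nucleotides 1326 and 1370 are the 2 panels in which MRM3 KO is higher.

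By the stop ratio, the other modified residues of the rRNAs did not pass in either direction. Whether this ratio follows the level of these modifications was not tested, so that no level of modification is read from it. U1076 of the 12S rRNA, a methyluridine that TRMT2B makes, had stop ratios of 1.34, 1.31 and 1.23% in MRM3 KO, against 1.03, 1.38 and 0.897% in MRM2 KO. The cytidines methylated by METTL15 (C1486) and NSUN4 (C1488) were at 0.0672 to 0.138% and 0.363 to 0.414% in MRM3 KO, against 0.0963 to 0.175% and 0.457 to 0.610% in MRM2 KO. The adenosines dimethylated by TFB1M near the 3′ end of the 12S rRNA, A1583 and A1584, were at 3.23 to 4.95% and 2.97 to 3.70% in MRM3 KO, against 2.38 to 3.81% and 1.69 to 2.86% in MRM2 KO. U3067, the pseudouridine of RPUSD4 in the 16S rRNA, was at 0.235 to 0.377% in MRM3 KO, against 0.285 to 0.348% in MRM2 KO. Adjusted p over these 6 ranged upward from 0.458 (edgeR). Unadjusted p was 0.0359 at A1583 and 0.0425 at A1584 (edgeR). The lines did not overlap at C1488 and A1584, as at 14.7% of all positions tested. A13710, the 1-methyladenosine in the MT-ND5 mRNA, had too little coverage for the test and read 12.4, 13.3 and 8.60% in MRM3 KO, against 8.06, 15.9 and 10.5% in MRM2 KO. Nucleotide 9 of mt-tRNAs, a purine that TRMT10C methylates, is A or G in 19 of the 22 tRNAs, of which 11 could be tested, and 0 were called (edgeR; 0 also at an unadjusted p under 0.05). Over all positions tested 0.633% were called, so that 0 of 11 does not set nucleotide 9 apart. The log2 differences of the 11 ran from -0.05 to 0.41 with a median of 0.02. The median was 0.56 over the 430 mt-tRNA positions tested and 0.26 over all positions tested. Mean stop ratios at nucleotide 9 ran from 8.03% at MT-TA to 85.3% at MT-TK in MRM3 KO. High ratios have little room to rise, so that these medians compare positions at unlike levels.

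Of the 50 positions with a higher stop ratio in MRM3 KO, 29 lay in mt-tRNAs (of 430 positions tested), 14 in the 12S rRNA (of 914), 5 in mRNAs (of 6477) and 2 in the 16S rRNA (of 1494). Of the 50, 42 lay within the first 50 nucleotides of their transcript, where 9.35% of all tested positions lie. The mt-tRNAs are 59 to 75 nucleotides long, so that most of each lies in its first 50. All 29 tRNA positions are among the 42, and the share near the 5′ end is not separate from the count in mt-tRNAs. MT-TM, the tRNA for methionine, had 12 and MT-TV, the tRNA for valine encoded between the rRNAs, had 7. U1607 of MT-TV was at 1.42, 5.46 and 5.26% in MRM3 KO, against 0.559, 0.518 and 0.824% in MRM2 KO (log2 difference 2.61, edgeR, adjusted p = 0.000172). G4407 of MT-TM was at 2.71, 7.20 and 7.19% in MRM3 KO, against 0.476, 1.51 and 1.36% in MRM2 KO (log2 difference 2.21, edgeR, adjusted p = 0.000344). In 28 of the 29 tRNA positions replicate 1 was the lowest of the MRM3 KO libraries. The lines did not overlap in 20 of the 29, against 49 of the 59 called positions of all kinds and 14.7% of all positions tested. At the start of the 12S rRNA, G653 was at 1.80, 1.79 and 3.21% in MRM3 KO, against 1.43, 0.961 and 0.794% in MRM2 KO (log2 difference 1.11, edgeR, adjusted p = 0.000479), with replicate 3, the library of short fragments, the highest. The number of called positions of all kinds was 155 without MRM3 KO replicate 1 and 13 without MRM3 KO replicate 3, and 14, 8 and 4 without MRM2 KO replicates 1, 2 and 3; the part of fragment length and tRNA share in these calls was not tested.

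The largest fitted differences in the stop ratio were all at few reads. C9249 of MT-CO3 had 2, 4 and 11 stops in MRM3 KO, against 0, 0 and 0 in MRM2 KO, and U12175 of MT-TH had 2, 4 and 9 in MRM3 KO, against 0, 0 and 0 in MRM2 KO. With 3 counts over the MRM2 KO group as the limit that 0 allows, the pooled ratios were 4.60-fold and 4.92-fold higher in MRM3 KO. These folds take the few MRM3 KO stops as exact and are not lower bounds. A position needed at least 10 stops over the 6 libraries. All of the 10 largest met this through their stops in MRM3 KO, so that their direction is no support for a difference. The other 8 of the 10 largest were U14706 and G14716 of MT-TE, C9277 and C9269 of MT-CO3, G4421 and A4415 of MT-TM, U10528 of MT-ND4L and U12167 of MT-TH. They had 4 to 36 stops a library in MRM3 KO, against 0 to 4 in MRM2 KO, and log2 differences from 2.67 to 4.23. All 10 lost the call without any 1 of the MRM2 KO libraries, with an adjusted p up to 0.502 (edgeR).

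The last question was how the transcripts themselves compared. The 16S rRNA was scarce relative to the 12S rRNA in MRM3 KO. The ratio of 16S to 12S reads was 0.571, 0.525 and 0.496 in MRM3 KO, against 1.41, 1.34 and 1.35 in MRM2 KO. The groups were far apart, with means of 0.531 ± 0.0381 in MRM3 KO and 1.37 ± 0.0347 in MRM2 KO (SD, n = 3 each), a 0.388-fold ratio (log2 difference -1.37 ± 0.06 SE, exact permutation p = 0.1, the smallest that 3 against 3 allows). It was 1.16 to 1.19 in the parental line and 1.30 to 1.38 in the MRM1 KO line. A ratio within a library shows unequal change and not which of the 2 rRNAs changed. RNA was pooled from many cells, so that an even change in all mitochondria and a larger change in some cannot be told apart. The 12S rRNA took 45.1, 47.9 and 47.4% of all reads in MRM3 KO, against 30.7, 29.7 and 29.8% in MRM2 KO. The 16S rRNA took 25.8, 25.2 and 23.5% in MRM3 KO, against 43.2, 39.8 and 40.2% in MRM2 KO.

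The 13 mRNAs were level with the 12S rRNA and higher against the 16S rRNA in MRM3 KO. The ratio of mRNA to 12S reads was 0.388, 0.432 and 0.478 in MRM3 KO, against 0.474, 0.396 and 0.443 in MRM2 KO, overlapping groups (log2 difference -0.02 ± 0.12 SE, exact permutation p = 0.8). The ratio of mRNA to 16S reads was 0.679, 0.822 and 0.965 in MRM3 KO, against 0.337, 0.295 and 0.328 in MRM2 KO, 2.55-fold higher in MRM3 KO and without overlap (exact permutation p = 0.1). The ratio of mt-tRNA to 12S reads was 0.258, 0.132 and 0.135 in MRM3 KO, against 0.378, 0.633 and 0.560 in MRM2 KO, also without overlap (exact permutation p = 0.1). That of mt-tRNA to 16S reads overlapped, at 0.452, 0.251 and 0.272 in MRM3 KO, against 0.269, 0.471 and 0.415 in MRM2 KO (exact permutation p = 0.6). The tRNAs that flank the 12S rRNA, MT-TF and MT-TV, did not pass, with log2 differences of -0.63 and -0.43 on the scale described next (edgeR, adjusted p = 0.125 and 0.335).

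**Figure D4:**
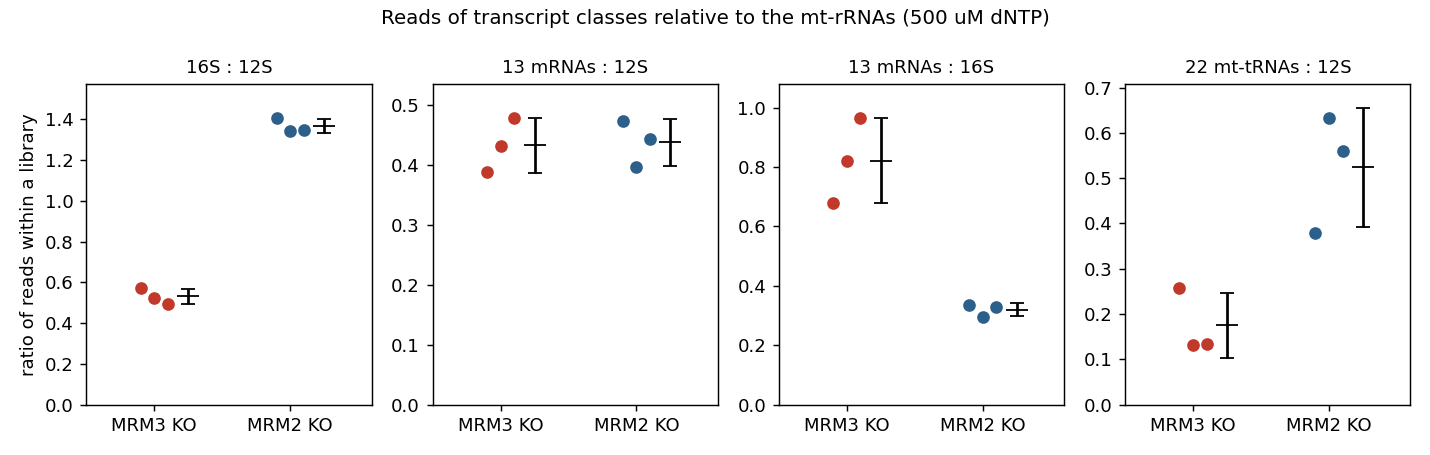
Ratios of reads within each library (vertical axes, no unit, each panel with its own scale from 0) in the MRM3 KO and MRM2 KO libraries at 500 µM dNTP: 16S to 12S rRNA, the 13 mRNAs to each rRNA, and the 22 mt-tRNAs to 12S rRNA. Points are libraries and bars are the mean ± SD (n = 3); 16S to 12S is 0.496 to 0.571 in MRM3 KO, against 1.34 to 1.41 in MRM2 KO, whereas mRNA to 12S overlaps.

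With library sizes scaled by TMM, a method that assumes that most transcripts keep their level, 11 of 37 transcripts passed, 29.7%, with 9 higher and 2 lower in MRM3 KO, 24.3 and 5.41%. The libraries of the lines did not overlap for 45.9% of the transcripts. The TMM factors of replicates 1, 2 and 3 were 1.29, 0.733 and 0.663 in MRM3 KO, against 1.17, 1.19 and 1.15 in MRM2 KO. Replicate 1 of MRM3 KO was thus scaled unlike replicates 2 and 3 of its line, and the sizes of the TMM-scaled differences hold that split. The median log2 difference over the 37 was -0.33. It was -0.76 with total reads and -1.34 with library sizes from the 13 mRNAs (4 higher and 13 lower of 17 called there, and 9 higher and 8 lower of 17 with total reads), so that a level is relative to the scaling. MT-RNR1 was higher in MRM3 KO by 1.16 on the log2 scale (edgeR, adjusted p = 0.00443), and MT-RNR2 was at -0.23 (edgeR, adjusted p = 0.508). With library sizes from the mRNAs MT-RNR1 was at 0.02 and MT-RNR2 at -1.34 (edgeR, adjusted p = 0.892 and 0.00731), and with total reads they were at 0.64 and -0.73. Without MRM2 KO replicate 2, MT-RNR2 passed at -0.76 (edgeR, adjusted p = 4.13e-05).

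All 13 mRNAs had positive values, from 0.26 to 1.58 with a median of 1.20, and 8 passed. Of the 7 mRNAs for complex I, the NADH dehydrogenase, 5 were higher in MRM3 KO: MT-ND1, MT-ND2, MT-ND3, MT-ND4 and MT-ND5, by 1.30, 1.42, 1.37, 1.43 and 1.20. MT-ND4L, which shares a transcript with MT-ND4 and overlaps it, was at 0.92 and did not pass, and MT-ND6, the one mRNA encoded on the other strand, was at 0.26 and did not pass. MT-CYB, the complex III subunit, was higher by 1.51. It took 1.33, 1.55 and 1.87% of reads in MRM3 KO, against 0.910, 0.745 and 0.794% in MRM2 KO. Of the 3 mRNAs for complex IV, the cytochrome c oxidase, MT-CO2 was higher by 1.18, whereas MT-CO1 at 0.95 and MT-CO3 at 0.83 did not pass (edgeR, adjusted p = 0.0639 and 0.102). Of the 2 for complex V, the ATP synthase, MT-ATP6 was higher by 1.58, and MT-ATP8, which overlaps it, was at 0.85 and did not pass. MT-ATP6 took 1.52, 1.75 and 2.17% of reads in MRM3 KO, against 1.08, 0.786 and 0.812% in MRM2 KO. With library sizes from the mRNAs, which by construction centres the mRNAs near 0, MT-CO2 was at -0.0032.

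Of the 22 mt-tRNAs 21 had negative values, with a median of -0.64, and 2 passed. MT-TD, the tRNA for aspartate, had 100, 30 and 55 reads in MRM3 KO, against 87, 165 and 92 in MRM2 KO, a log2 difference of -1.25 (edgeR, adjusted p = 0.0212). MT-TP, the tRNA for proline, was at -1.04 (edgeR, adjusted p = 0.0134). The 14 tRNAs transcribed from the heavy strand had a median of -0.60 and the 8 from the light strand a median of -0.64. The count of 11 called transcripts fell to 3, 0, 2, 2 and 0 without MRM3 KO replicates 2 and 3 and MRM2 KO replicates 1, 2 and 3, and it was 20 without MRM3 KO replicate 1 (edgeR; for the counts of 0, 11 and 8 transcripts had an unadjusted p under 0.05).

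**Figure D5:**
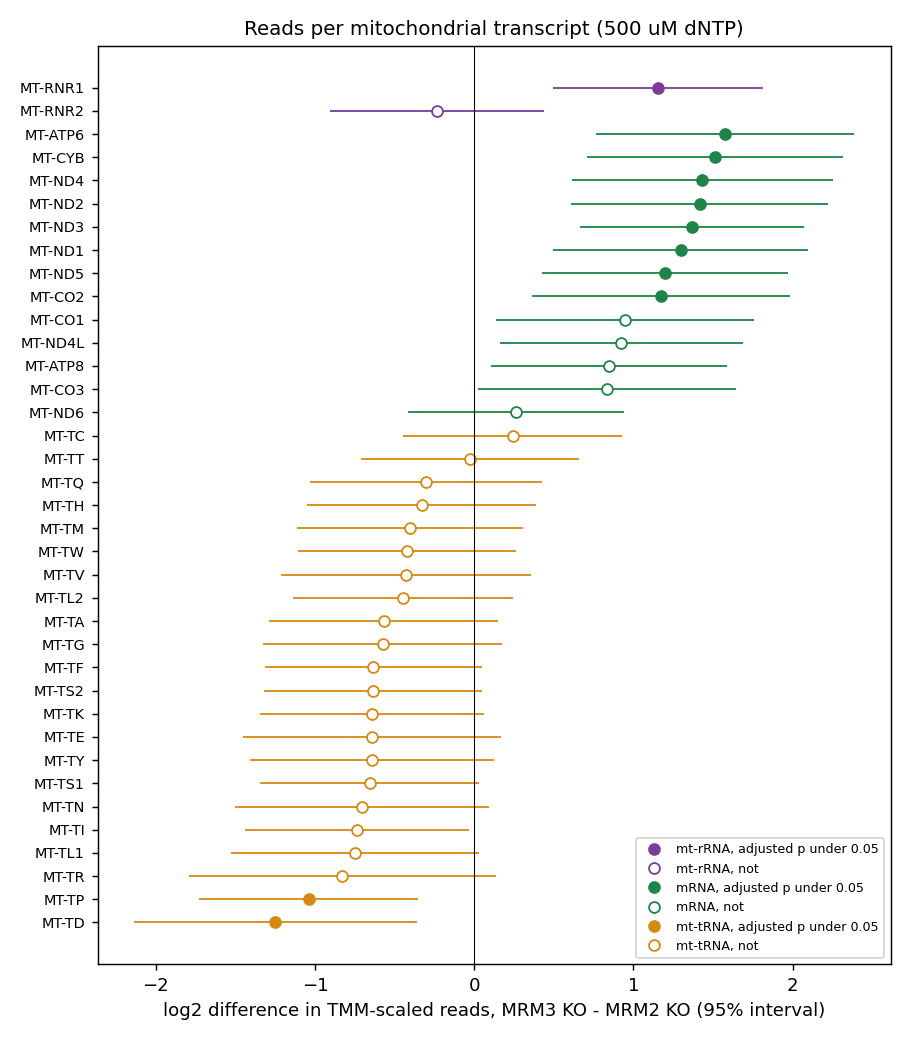
Log2 difference in TMM-scaled reads (horizontal axis, MRM3 KO minus MRM2 KO, point and 95% interval) for the 2 rRNAs, 13 mRNAs and 22 mt-tRNAs of the mitochondrial genome, with filled points for an adjusted p under 0.05. MT-RNR1 and 8 mRNAs are filled at 1.16 to 1.58, MT-TP and MT-TD are filled at -1.04 and -1.25, and MT-RNR2 lies at -0.23.

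Along each rRNA, fragment starts in windows of 50 nucleotides, as a share of the starts in that rRNA, differed in 5 of 50 windows, 10%, with 2 higher and 3 lower in MRM3 KO, 4 and 6%, whereas 22% had no overlap between the lines. In the 12S rRNA the 3 called windows were the neighbours that run from nucleotide 801 to 950, the 3′ end of the molecule, and all were lower in MRM3 KO. Nucleotides 801 to 850 (chrM:1448-1497) held 2.41, 1.90 and 2.33% of starts in MRM3 KO, against 3.13, 4.01 and 3.77% in MRM2 KO. The shares for nucleotides 901 to 950 (chrM:1548-1597) were 0.373, 0.247 and 0.186% in MRM3 KO, against 0.431, 0.805 and 0.938% in MRM2 KO. The log2 differences of the 3 windows were -0.72, -1.0002 and -1.45 (edgeR, adjusted p = 0.000946, 0.0024 and 0.0024), and the last lost the call without MRM3 KO replicate 2 (edgeR, adjusted p = 0.115). In the 16S rRNA nucleotides 801 to 850 and 851 to 900 were higher in MRM3 KO, by 0.50 and 0.64 (edgeR, adjusted p = 0.00518 and 0.0027). They held 3.87, 3.94 and 5.19% and 2.91, 2.47 and 3.67% of starts in MRM3 KO, against 3.11, 3.04 and 3.02% and 2.01, 2.03 and 1.77% in MRM2 KO. Both windows lie 5′ of A2617, nucleotide 947, at which fewer reads stopped in MRM3 KO. Whether their higher share of starts is separate from that difference was not tested. In the libraries of the same RNA at 2 µM dNTP 0 windows passed (edgeR; 3 at an unadjusted p under 0.05), and the 12S window from nucleotide 801 was at 0.19 there.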

How the data were processed

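RNA from mitochondria of 3 plates per line was profiled at 500 µM dNTP. The authors used STAR 2.5.3a, per the labels, to align read pairs to chromosome M of GRCh38.p13, and deposited per-position counts of fragment ends and coverage, the cleavage protection score, and stop ratios as fractions with 1 added to stops and coverage. Both deposited measures were recomputed from the counts and recovered. Another 10 columns with the authors' own test results were not used.

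Counts were tested with edgeR 4.0.16 (quasi-likelihood) over the 37 transcripts (at least 10 reads in 3 libraries), 3′ ends with the flanking mean as offset (flank median of at least 15 reads), and stops with coverage as offset (at least 50 reads). Positions needed at least 10 ends or stops over the 6 libraries. Scores were tested with limma 3.58.1. The threshold was a Benjamini-Hochberg adjusted p of 0.05. DESeq2 1.42.0 served as an alternative. R 4.3.3 and Python 3.11.15 were used. The procedures were tested on simulated data. Libraries keep strand, but genes that overlap on the same strand (MT-ATP8 and MT-ATP6, MT-ND4L and MT-ND4) share reads.

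Named transcripts and positions were the known and other modified residues, the transcripts listed by complex and strand, and the 10 largest differences among calls without overlap of libraries (5 windows); others were chosen after their values were seen. Members and lists were chosen with earlier results of these data known. The replicate numbers did not pair the libraries. Reads carry no molecular identifiers, so that precision from depth covers counting error only.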

Additional observations from a re-analysis of the deposited data

How the results depend on the processing

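The 16S to 12S ratio kept its direction under every alternative run, at -1.42 to -1.31 on the log2 scale. The count of called transcripts, 11, was 21 with 12 libraries of 4 lines, 17 with total reads, 17 with library sizes from the mRNAs (an alternative chosen after seeing the data), and 0 to 20 with 1 library left out. The count for the score, 2, was 4 at 2 µM dNTP, 1 with 12 libraries, thinned reads, negative scores kept, a flank of 4 or a flank median of at least 50, and 1 to 3 with 1 library left out. The count for 3′ ends, 9, was 1 at 2 µM, 14 with 12 libraries, thinned reads or a flank of 4, 5 with limma, and 4 to 21 with 1 library left out. The count for stops, 59, was 13 at 2 µM, 12 thinned, 0 with limma with 1 or 0.1 added (782 and 653 at an unadjusted p under 0.05; edgeR at an unadjusted p under 0.05 gave 937), 103 with a centred offset, 90 with no minimum of stops, and 4 to 155 with 1 library left out. The count for windows, 5, was 0 at 2 µM (edgeR; 3 at an unadjusted p under 0.05), 17 with windows of 25, and 4 to 8 with 1 library left out. The causes were not tested.

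With the replicate number as a block, which the correlations of same-numbered libraries (-0.59, -0.77 and 0.25 over transcripts) do not bear out as pairing, the counts were 2 transcripts, 1 score, 18 positions by 3′ ends, 62 by stops and 0 windows (edgeR; 9 at an unadjusted p under 0.05). In that block fit U3039 passed by 3′ ends at -0.65 and G2815 was at 0.0052.

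At G3040 the score difference of -0.83 had a limma adjusted p of 1 with no filter on scores, and it was -0.87 to -0.79 with 1 library left out. The 3′ ends there were 4.48 to 4.77 with 1 library left out. U3039 passed by 3′ ends with 12 libraries (-0.66), thinned reads (-0.81), limma (-0.35), a flank of 4 (-0.66) and a flank median of at least 50 (-0.66), and was at -0.73 to -0.60 with 1 library left out. The adjusted p of U3039 in the latter ran from 0.0283 to 0.381 (edgeR). G2815 turned with thinned reads, to -0.10 in score and 0.41 in 3′ ends, and with 1 library left out it was at -0.019 to 0.084 in score and -0.38 to 0.24 in 3′ ends. MT-CO2 was at -0.0032 with library sizes from the mRNAs, a scaling that by construction centres the mRNAs near 0. At 2 µM dNTP these turned in sign: the stop ratios of G2815 (-0.15), G3040 (-3.97), C1486 (0.46), C1488 (0.29), A1583 (-0.85), A1584 (-0.011), U3067 (0.49), U12175 (-0.10), G4421 (-0.080) and G14716 (-0.032), and the windows at nucleotide 801 of 12S (0.19) and 851 of 16S (-0.026). U3067 also turned with thinned reads (0.094) and was at -0.24 to 0.12 with 1 library left out. Apart from the score and 3′ ends of G2815, U3039 and G3040 given above, among 48 single transcripts, positions and windows 479 alternative values kept their direction and side of the threshold, 202 lost the call, 6 gained it and 16 turned.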

Other observations

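The same ligated RNA was also reverse transcribed at 2 µM dNTP, where the enzyme pauses at 2′-O-methylated residues. The stop ratio at G3040 was 1.31, 2.15 and 1.43% in MRM3 KO at this concentration, against 23.5, 31.5 and 19.9% in MRM2 KO, on coverage from 789 to 6456 reads. At G2815 it was 7.54, 8.79 and 6.28% in MRM3 KO, against 7.66, 9.15 and 8.18% in MRM2 KO, overlapping values. At U3039 it was 0.912, 1.46 and 1.36% in MRM3 KO, against 1.80, 2.49 and 1.42% in MRM2 KO. The 1-methyladenosine A2617 read 9.54, 11.4 and 11.5% in MRM3 KO, against 16.7, 17.7 and 11.01% in MRM2 KO, where replicate 3 of MRM2 KO lay inside the MRM3 KO range. These 4 residues were chosen after their values at 500 µM were seen.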
